A study of Mus musculus with 6 samples.

Results

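The interleukin-1 family comprises secreted cytokines, their antagonists and the receptor chains that bind them. The genes were taken as listed symbols: the ligands Il1a, Il1b, Il18 and Il33, the receptor antagonist Il1rn, the binding protein Il18bp, and the receptor chains Il1r1, Il1r2, Il1rap and Il1rl1. Each was read from the probe set that carries that symbol alone, or from the brightest where several did. Of the 10 listed genes 9 were measured, out of 22180 genes in all, and Il1rl1 was not analysed here. The rule uses gene names and, between probe sets, mean brightness.

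IL-1alpha and IL-1beta bind the receptor IL-1R1, which then recruits the accessory chain IL-1RAcP, the product of Il1rap, and signals through MyD88, IRAK kinases and TRAF6 to NF-kB and MAP kinases. The antagonist IL-1Ra occupies IL-1R1 without signalling, and IL-1R2 is a decoy that binds ligand but cannot signal. In the joint lining, fibroblasts respond to IL-1 with matrix proteases, chemokines, IL-6 and prostaglandin synthesis, and IL-1 is best known there as a driver of cartilage damage.

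The cells were fibroblast-like synoviocytes, the stromal cells that line joints, cultured from knee synovium of C57BL6 mice and used between passages 4 and 8. In the Ad-Epas1 group (n = 3 arrays) the cells received an adenovirus carrying Epas1, which encodes the hypoxia-inducible transcription factor HIF-2alpha. In the Mock group (n = 3 arrays) they received an adenovirus without an insert, so every array comes from cells exposed to adenovirus. Exposure was at a multiplicity of infection of 800 for 2 h, followed by 24 h of culture, and the comparison asks what a virally delivered Epas1 changes. The labels give a flow cytometry purity of over 90% CD90+ and under 1% CD14+ cells, and they do not say whether replicates came from separate animals or cultures, so p-values measure the spread between these arrays, which may be technical. Values are log2 expression values per array. The number of arrays limits precision, and an exact permutation test of 3 against 3 cannot go below p = 0.1. The tests below are limma's moderated test with p-values adjusted over all genes (Benjamini-Hochberg, threshold 0.05).

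Epas1 was 13.14, 13.15 and 13.11 in Ad-Epas1 against 8.67, 8.71 and 8.51 in Mock. That is a 22.6-fold rise, which fits the labels (log2 fold change 4.50, adjusted p = 4.6e-06, and 4.51 without Ad-Epas1 replicate 3). Levels of genes these cells should not express were gauged from 1394 olfactory and vomeronasal receptor genes, of which 95% lay below 6.62. Against that level, 13, 13 and 12 of 13 fibroblast markers were above it in Ad-Epas1 replicates 1, 2 and 3, and all 13 on each Mock array. Transcripts of macrophages were present as well: 22 of 23 macrophage markers were above 6.62 in Ad-Epas1 replicates 1 and 2 and on every Mock array, against 15 in Ad-Epas1 replicate 3. Their summed linear level was 58019, 50302 and 4518 in Ad-Epas1 against 63259, 52159 and 52742 in Mock. Cd14, the macrophage marker of the cytometry, stood at 11.92, 11.40 and 8.62 in Ad-Epas1 and at 10.42, 9.99 and 10.14 in Mock. Thy1, which encodes CD90, was 10.40, 10.60 and 10.98 in Ad-Epas1 and 11.17, 11.06 and 11.06 in Mock. Ad-Epas1 replicate 3 thus stands apart from the other 5 arrays, and the tests and counts of called genes are given with and without it. In bulk samples, fewer cells of a type and less RNA per cell cannot be told apart.

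Among the 9 measured genes, Il1r1, Il1rap and Il18 fell and none rose over the 6 arrays. This is 33.3% called, beside 16.3% of all genes (6.57% rose and 9.75% fell). At an unadjusted p under 0.05 the only rise was that of Il33. With Ad-Epas1 replicate 3 left out, Il1a and Il1b rose and the same 3 genes fell, which is 55.6% of the 9 beside 24.3% of all genes (10.3% rose and 14% fell). The median log2 fold change of the 9 genes was 0.08, beside 0.05 for all genes, and 0.20 beside 0.03 without that replicate. Groups did not overlap for 4 of the 9 (Il33 above, the 3 fallen genes below), beside 39.7% of all genes (21.3% above and 18.4% below). Leaving out that replicate, they did not overlap for 7 of the 9 (Il1a, Il1b, Il33 and Il1r2 above, the same 3 below), beside 53.4% of all genes (28.4% above and 25.1% below).

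**Figure D1:**
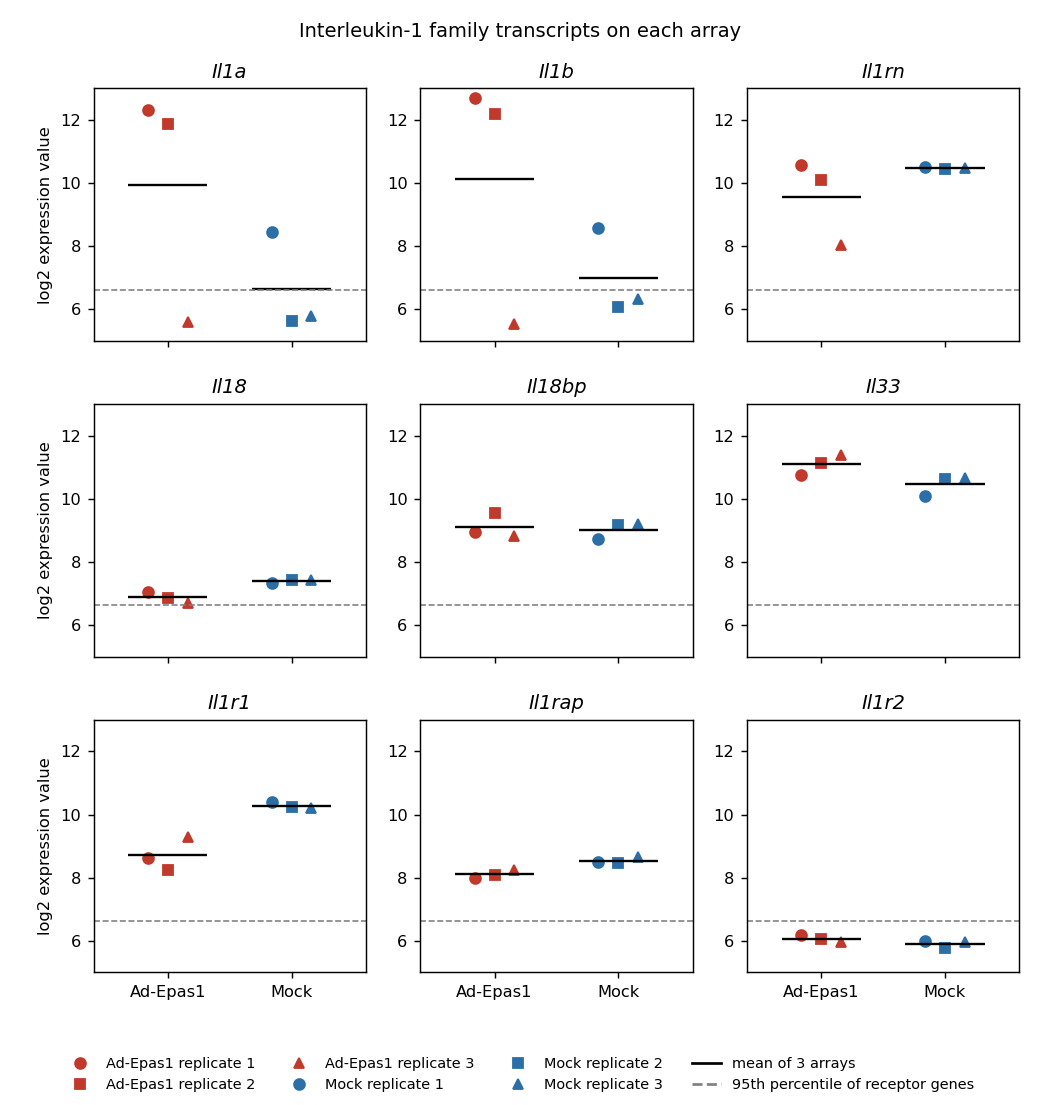
Log2 expression value of each measured gene (y axis) on the 3 Ad-Epas1 arrays (red) and the 3 Mock arrays (blue). Markers show the replicate, the black line the mean of 3 arrays and the dashed line the level of 6.62 below which 95% of receptor genes lie. Il1a and Il1b are highest in Ad-Epas1 replicates 1 and 2, at 11.86 to 12.68, and Il1r1 is lower on every Ad-Epas1 array.

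The upstream sequences are shown for the 5 genes that passed the test with or without Ad-Epas1 replicate 3 (Il1a, Il1b, Il18, Il1r1 and Il1rap), and for Il1r2, which did not pass, as a contrast. They are the 250 bases before each annotated start, from RefSeq (GRCm38.p6), written 5′ to 3′ on the gene's strand. Capitals mark matches, on both strands, to the core of the hypoxia response element (ACGTG or GCGTG), to the TATA box (TATAAA), to the AP-1 site (TGANTCA) and to the NF-kB consensus. Il1a lies at chr2:129309973-129310222 and Il1b at chr2:129371140-129371389, both on the minus strand. The windows of Il1r1, which has 2 annotated starts, lie at chr1:40224830-40225079 and chr1:40266336-40266585, that of Il1rap at chr16:26581455-26581704, that of Il18 at chr9:50554450-50554699 and that of Il1r2 at chr1:40085843-40086092, all on the plus strand.
Il1a: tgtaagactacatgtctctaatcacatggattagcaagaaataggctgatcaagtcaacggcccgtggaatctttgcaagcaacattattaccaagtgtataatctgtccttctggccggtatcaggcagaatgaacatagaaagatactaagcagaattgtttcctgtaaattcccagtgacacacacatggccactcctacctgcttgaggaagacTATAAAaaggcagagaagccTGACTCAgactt
Il1b: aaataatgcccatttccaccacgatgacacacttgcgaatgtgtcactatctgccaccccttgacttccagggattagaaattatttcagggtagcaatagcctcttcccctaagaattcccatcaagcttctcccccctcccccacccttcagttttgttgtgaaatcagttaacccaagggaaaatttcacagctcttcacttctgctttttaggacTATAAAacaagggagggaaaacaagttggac
Il18: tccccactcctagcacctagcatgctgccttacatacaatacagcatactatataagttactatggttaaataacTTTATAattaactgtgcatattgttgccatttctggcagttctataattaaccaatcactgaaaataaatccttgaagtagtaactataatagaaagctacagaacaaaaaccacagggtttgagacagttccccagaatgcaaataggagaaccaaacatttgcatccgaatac
Il1r1 (start 1): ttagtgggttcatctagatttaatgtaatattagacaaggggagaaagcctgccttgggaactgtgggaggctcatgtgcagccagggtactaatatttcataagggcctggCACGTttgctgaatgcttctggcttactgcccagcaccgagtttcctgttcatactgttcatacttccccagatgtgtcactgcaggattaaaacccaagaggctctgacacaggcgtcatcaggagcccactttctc
Il1r1 (start 2): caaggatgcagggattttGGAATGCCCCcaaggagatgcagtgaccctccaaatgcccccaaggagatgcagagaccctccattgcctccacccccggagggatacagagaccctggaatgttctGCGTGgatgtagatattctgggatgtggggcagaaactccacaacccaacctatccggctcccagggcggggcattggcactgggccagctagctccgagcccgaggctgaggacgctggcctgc
Il1rap: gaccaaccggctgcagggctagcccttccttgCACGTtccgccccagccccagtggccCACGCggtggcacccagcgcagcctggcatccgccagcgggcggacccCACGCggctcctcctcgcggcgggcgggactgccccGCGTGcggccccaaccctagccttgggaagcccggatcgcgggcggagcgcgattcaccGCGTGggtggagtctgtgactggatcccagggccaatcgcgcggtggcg
Il1r2: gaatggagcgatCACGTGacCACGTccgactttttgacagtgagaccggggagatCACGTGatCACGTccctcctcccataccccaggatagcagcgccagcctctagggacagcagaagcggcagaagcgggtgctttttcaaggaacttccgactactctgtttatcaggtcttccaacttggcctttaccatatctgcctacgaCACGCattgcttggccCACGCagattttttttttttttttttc

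Il1a holds a TATA box beginning 32 bases before its start and an AP-1 match at 12 bases, and Il1b a TATA box at 31 bases. The window of Il18 holds a TATA box match on the opposite strand at 175 bases. None of these 3 ligand windows holds a match to the hypoxia response core. Il1r1 holds 1 such match before each start, at 138 and 125 bases, and an NF-kB match at 232 bases before start 2. Il1rap holds 5 matches to the hypoxia response core, and Il1r2, which did not pass the test, holds 8, some of which overlap on opposite strands. Of the genes that fell, Il18 holds no match. Il1r2 holds the most among these 6, but it was chosen as a contrast and lay below 6.62 on all 6 arrays. The other members that did not pass hold fewer: Il33 0 before each start, Il18bp 0, and Il1rn 1, 0 and 0 before its 3 starts. The other motifs occur in these members too. Il33 holds a TATA box at 203 bases before start 1 and at 29 bases before start 2. Il1rn holds an AP-1 match at 141 bases before start 1. A link between matches and calls was not tested. Among 20611 promoters of tested genes, 44.7% held the hypoxia response core, 11.3% the TATA box, 7.98% the NF-kB consensus and 6.37% the AP-1 site. The hypoxia response core is thus common and the other motifs less so, and any match is a description only.

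The agonist ligand IL-1beta, which needs cleavage to become active, is encoded by Il1b (probe set 17391565). Il1b was 12.68, 12.20 and 5.54 in Ad-Epas1 replicates 1, 2 and 3, against 8.57, 6.06 and 6.34 in Mock. It was high in Ad-Epas1 replicates 1 and 2, intermediate in Mock replicate 1, and below 6.62 on the other 3 arrays, of which Ad-Epas1 replicate 3 was the lowest, so the groups overlap. The means were 10.14 ± 4.00 in Ad-Epas1 and 6.99 ± 1.38 in Mock (SD, n = 3 each). The log2 fold change of 3.15 (SE 1.88, 95% interval -1.34 to 7.64) did not pass (adjusted p = 0.29). Without Ad-Epas1 replicate 3 it was 5.45 (SE 0.71, interval 3.74 to 7.16), or 43.8-fold, and passed (adjusted p = 0.0028).

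IL-1alpha, which is active without cleavage, is encoded by Il1a (probe set 17391554), a neighbour of Il1b on chromosome 2. Il1a was 12.32, 11.86 and 5.61 in Ad-Epas1 and 8.47, 5.65 and 5.80 in Mock. The arrays took the same order as for Il1b, and again 3 of them, Ad-Epas1 replicate 3 and Mock replicates 2 and 3, lay below 6.62. The log2 fold change over 6 arrays was 3.29 (SE 1.81, interval -1.03 to 7.61, adjusted p = 0.26). Without Ad-Epas1 replicate 3 it was 5.45 (SE 0.81, interval 3.50 to 7.41, adjusted p = 0.0046). The Mock mean in both folds holds 2 arrays at the level of unexpressed genes, so the size of the fold depends on that floor. Leaving out any other single array gave 1.88 to 3.94 for Il1b and 2.10 to 4.21 for Il1a, none of which passed.

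The array on which both ligands are lowest in Ad-Epas1 is the one with the low macrophage transcripts. The median macrophage marker was 0.002, -0.19 and -3.80 log2 units from the Mock mean in Ad-Epas1 replicates 1, 2 and 3, and 0.16, -0.07 and -0.06 in Mock replicates 1, 2 and 3. On Mock replicates 2 and 3, with Il1a and Il1b near the unexpressed level, 22 of 23 macrophage markers were above 6.62. The median hides markers that moved in opposite ways. Over the 6 arrays 5 of 23 fell and 0 rose (21.7% called beside 16.3% of all genes, and 0 rose at an unadjusted p under 0.05), and without Ad-Epas1 replicate 3, 3 rose and 6 fell (39.1% beside 24.3%). Adgre1, a gene of mature macrophages chosen after its values were seen, was 12.66, 12.35 and 5.89 in Ad-Epas1 and 12.32, 11.68 and 11.69 in Mock. Adgre1 did not pass (log2 fold change -1.60, adjusted p = 0.55, and 0.61 and 0.088 without Ad-Epas1 replicate 3). Mrc1, which encodes the mannose receptor, was 7.96, 7.93 and 6.51 in Ad-Epas1 and 10.94, 10.02 and 9.96 in Mock, and fell (log2 fold change -2.84, adjusted p = 0.0094, and -2.36 and 0.0022 without Ad-Epas1 replicate 3). C1qa, a complement component, fell by 2.05 on the log2 scale, and by 1.65 without that replicate (adjusted p = 0.0089 and 3.4e-04). Cd14 rose by 1.48 only without that replicate (adjusted p = 0.0025, against 0.72 with it). Neutrophil markers were few: 4, 4 and 3 of 10 were above 6.62 in Ad-Epas1 and 3 on each Mock array. Camp, which encodes the antimicrobial peptide cathelicidin, was 9.14, 8.94 and 8.26 in Ad-Epas1 and 7.32, 6.86 and 6.76 in Mock, and rose 3.48-fold (adjusted p = 0.0063, and 6.3e-04 without Ad-Epas1 replicate 3). S100a8, a calgranulin of neutrophils and activated macrophages, was 8.44, 6.97 and 5.35 in Ad-Epas1 and 5.88, 5.48 and 5.34 in Mock. The same 2 arrays were highest as for Il1b, but Ad-Epas1 replicate 2 was near 6.62 and Mock replicate 1 below it. S100a8 rose 4.42-fold only without that replicate (adjusted p = 0.011, against 0.23 with it). S100a9, the other calgranulin of the list, chosen after its values were seen, did not follow it. It was 6.19, 6.49 and 6.59 in Ad-Epas1 and 6.18, 6.53 and 6.28 in Mock, below 6.62 on every array. It did not pass (adjusted p = 0.67, and 0.97 without that replicate). Counts of called neutrophil markers were 1 of 10 (10%) beside 16.3% of all genes, and 2 of 10 (20%) beside 24.3%. The part of these cells in the Il1a and Il1b values was not tested.

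Il33 encodes a nuclear cytokine released from damaged stromal cells (probe set 17358598). It was 10.76, 11.15 and 11.39 in Ad-Epas1 and 10.08, 10.64 and 10.66 in Mock, so all 3 Ad-Epas1 arrays lay above the Mock arrays. The difference was 1.56-fold, a log2 fold change of 0.64 (SE 0.21, interval 0.13 to 1.15), and missed the threshold (adjusted p = 0.089). Without Ad-Epas1 replicate 3, its highest array, it was 0.49 (adjusted p = 0.14). Il33 was highest on the array with the fewest macrophage transcripts, where Il1a and Il1b were lowest. That contrast rests on 1 array, and Il1a and Il1b were below 6.62 on Mock replicates 2 and 3 as well.

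Il18, which encodes a cytokine best known for inducing interferon-gamma in lymphocytes, fell (probe set 17517105). It was 7.06, 6.87 and 6.69 in Ad-Epas1 and 7.34, 7.42 and 7.44 in Mock, all within a log2 unit of the unexpressed level, with no overlap of the groups. The fall was 1.44-fold, a log2 fold change of -0.52 (SE 0.10, interval -0.77 to -0.28, adjusted p = 0.019), and -0.43 without Ad-Epas1 replicate 3 (adjusted p = 0.013). The call was lost without Ad-Epas1 replicate 2 (adjusted p = 0.070), Mock replicate 2 (0.082) or Mock replicate 3 (0.084), with the size between -0.52 and -0.50.

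The antagonist and the binding protein did not pass the test. Il1rn, which encodes the natural blocker of IL-1R1 (probe set 17367686), was 10.56, 10.09 and 8.04 in Ad-Epas1 and 10.52, 10.44 and 10.49 in Mock. The Mock arrays lay close together (SD 0.04), Ad-Epas1 replicate 1 was above all of them, and Ad-Epas1 replicate 3, the array low in macrophage transcripts, was far below. The log2 fold change was -0.92 (interval -2.35 to 0.51, adjusted p = 0.33), and -0.16 without that replicate (interval -0.49 to 0.17, adjusted p = 0.46). On Ad-Epas1 replicates 1 and 2, where Il1a and Il1b were high, Il1rn therefore differed from Mock by less than the interval can separate from 0. Il18bp, whose product binds and neutralises IL-18 (probe set 17493995), was 8.95, 9.55 and 8.81 in Ad-Epas1 and 8.72, 9.17 and 9.19 in Mock, with overlapping groups (log2 fold change 0.08, interval -0.45 to 0.60, adjusted p = 0.84). Without that replicate it was 0.22 (interval -0.30 to 0.74, adjusted p = 0.51).

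The signalling receptor had the smallest p of the 9 genes over the 6 arrays. Il1r1 (probe set 17212185) was 8.63, 8.25 and 9.28 in Ad-Epas1 against 10.38, 10.23 and 10.22 in Mock. Every Ad-Epas1 array was lower than every Mock array, with Ad-Epas1 replicate 3 the nearest. The means were 8.72 ± 0.52 in Ad-Epas1 and 10.28 ± 0.09 in Mock (SD, n = 3 each). Il1r1 fell 2.94-fold, a log2 fold change of -1.55 (SE 0.24, interval -2.13 to -0.98, adjusted p = 0.0092). Without Ad-Epas1 replicate 3 the fall was 3.57-fold, at -1.83 (SE 0.13, interval -2.14 to -1.53, adjusted p = 3.6e-04). Leaving out each array in turn kept the call, at -1.83 to -1.32 and an adjusted p of at most 0.045. Of 13 fibroblast markers, 2 rose and 3 fell over the 6 arrays (38.5% called beside 16.3% of all genes), and 2 rose and 6 fell without Ad-Epas1 replicate 3 (61.5% beside 24.3%). Pdgfrb, a receptor of stromal cells, fell by 1.20 on the log2 scale (adjusted p = 0.0044, and by 1.36 without that replicate), while Pdpn, which encodes the lining marker podoplanin, rose by 0.73 (adjusted p = 0.0041, and by 0.79 without it). The macrophage markers Mrc1 and C1qa fell in the same comparisons. The part of such changes in the fall of Il1r1 was not tested.

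Il1rap, which encodes the accessory chain that IL-1R1 shares with the receptors of IL-33 and IL-36, fell too (probe set 17324522). It was 8.00, 8.09 and 8.23 in Ad-Epas1 and 8.49, 8.48 and 8.65 in Mock, without overlap. The fall was 1.35-fold (log2 fold change -0.43, SE 0.09, interval -0.64 to -0.22, adjusted p = 0.022), and 1.41-fold without Ad-Epas1 replicate 3 (adjusted p = 0.0080). The call was lost without Ad-Epas1 replicate 1 (adjusted p = 0.063), Ad-Epas1 replicate 2 (0.080), Mock replicate 2 (0.072) or Mock replicate 3 (0.089). The other 2 probe sets of Il1rap were below 6.62 on every array and showed 0.05 and 0.03, so their mean with this one gave -0.12 (adjusted p = 0.25). Il1r2, which encodes the decoy receptor (probe set 17212174), was 6.17, 6.05 and 5.96 in Ad-Epas1 and 6.0, 5.78 and 5.96 in Mock, below 6.62 on all 6 arrays (log2 fold change 0.15, interval -0.07 to 0.37, adjusted p = 0.31), and differed by 0.20 without Ad-Epas1 replicate 3 (interval -0.03 to 0.43, adjusted p = 0.19).

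**Figure D2:**
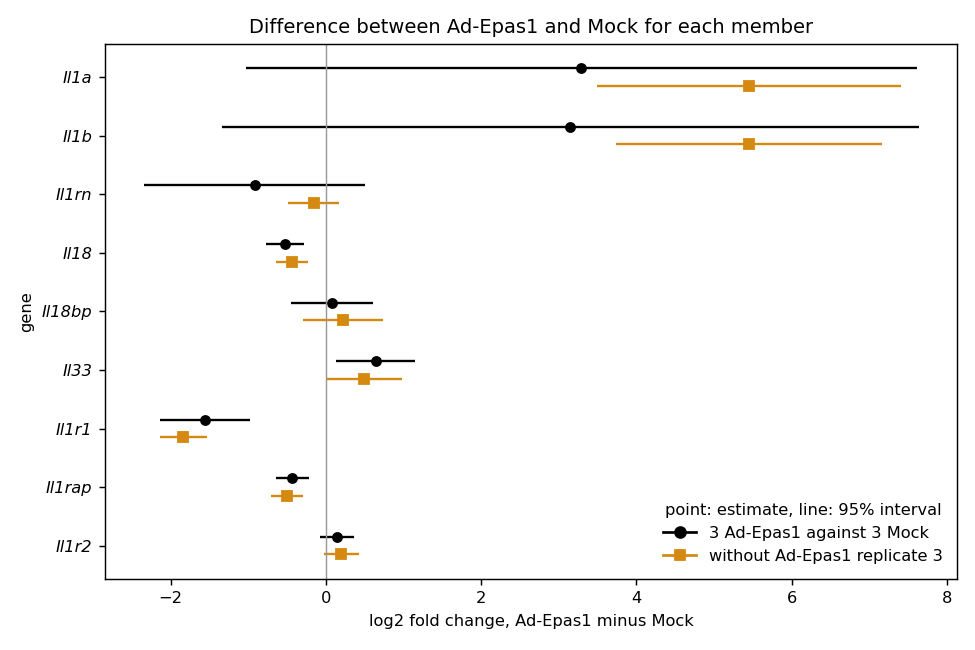
Log2 fold change, Ad-Epas1 minus Mock (x axis), of each measured gene, with its 95% interval as a line. Black circles are the 3 against 3 comparison and orange squares the comparison without Ad-Epas1 replicate 3. The intervals of Il1a and Il1b narrow and leave 0 without that array, while Il1r1 is below 0 both times.

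Of the other ligands and receptors of the family, 7 of 11 listed genes were measured. Over the 6 arrays 1 fell and 0 rose (14.3% called, near the 16.3% of all genes), and no further one passed at an unadjusted p under 0.05. Without Ad-Epas1 replicate 3, 2 fell and 0 rose (28.6% beside 24.3% of all genes), likewise 2 and 0 at an unadjusted p under 0.05. The gene that fell was Il1rl2, which encodes the IL-36 receptor. It was 7.09, 7.05 and 6.59 in Ad-Epas1 and 7.59, 7.52 and 7.71 in Mock, with no overlap (log2 fold change -0.70, SE 0.14, adjusted p = 0.021). Its call was lost without Ad-Epas1 replicate 2 or any 1 Mock array, where the adjusted p reached 0.092, and held without Ad-Epas1 replicate 3 (-0.54, adjusted p = 0.0053). Il18rap, the accessory chain of the IL-18 receptor, was 6.35, 6.37 and 6.90 in Ad-Epas1 and 6.81, 6.73 and 6.69 in Mock, and fell only without Ad-Epas1 replicate 3 (-0.38, adjusted p = 0.011, against -0.20 and 0.40 with it). Il1f10, a ligand-like member, and Sigirr, an inhibitory receptor, differed by 0.11 and 0.09 (adjusted p = 0.38 and 0.42, and 0.22 and 0.30 without Ad-Epas1 replicate 3), both below 6.62 on all arrays.

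Downstream of the receptor, 3 of 19 measured signalling genes rose and 0 fell (15.8% called, near the 16.3% of all genes), with a median log2 fold change of 0.15. At an unadjusted p under 0.05, 7 rose and 0 fell. Traf6, the ubiquitin ligase that carries the signal from IRAK kinases to NF-kB, was 9.71, 9.90 and 9.69 in Ad-Epas1 against 8.97, 8.83 and 8.73 in Mock. Its rise was 1.89-fold, or 0.92 on the log2 scale (SE 0.09, adjusted p = 0.0024), without overlap and in each fit with an array left out (0.86 to 0.98, and 0.96 without Ad-Epas1 replicate 3). Map3k8, a kinase upstream of MAP kinases, rose by 0.63 (SE 0.11, adjusted p = 0.013), a call lost without Ad-Epas1 replicate 2, Mock replicate 2 or Mock replicate 3 (adjusted p at most 0.065) and held without Ad-Epas1 replicate 3 (0.55, adjusted p = 0.011). Rela, the p65 subunit of NF-kB, rose by 0.45 (SE 0.09, adjusted p = 0.022), a call lost without Ad-Epas1 replicate 1, Ad-Epas1 replicate 2, Mock replicate 2 or Mock replicate 3 (adjusted p at most 0.095) and held without Ad-Epas1 replicate 3 (0.46, adjusted p = 0.023).

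On the remaining 5 arrays without Ad-Epas1 replicate 3, 7 of the 19 signalling genes rose and 0 fell (36.8% beside 24.3% of all genes), and at an unadjusted p under 0.05 12 rose and 1 fell. The 4 added were Irak2, a kinase of the receptor complex (0.49, adjusted p = 0.016, against 0.37 and 0.10 with it), and Peli1 (0.63, adjusted p = 0.0023), Ikbkg (0.47, 0.023) and Tollip (0.31, 0.037), named after their values were seen. Peli1 is a ubiquitin ligase, Ikbkg the regulatory subunit of the IkB kinase and Tollip an adaptor that restrains the pathway. Myd88, the adaptor of the receptor and also chosen after its values were seen, was 10.53, 10.52 and 10.53 in Ad-Epas1 and 10.65, 10.57 and 10.49 in Mock (log2 fold change -0.04, interval -0.21 to 0.12, adjusted p = 0.69).

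Among 18 measured genes of ligand maturation and release, 3 rose and 3 fell (33.3% called beside 16.3% of all genes), with a median of -0.08. With Ad-Epas1 replicate 3 left out, 4 rose and 3 fell (38.9% beside 24.3%), with a median of 0.05, and each of the 6 genes kept its call. Ninj1, which ruptures the plasma membrane of dying cells, was 9.91, 9.78 and 9.60 in Ad-Epas1 against 9.14, 8.70 and 8.71 in Mock, and rose 1.88-fold (log2 fold change 0.91, adjusted p = 0.0097, but 0.0501 without Mock replicate 3). Panx1, a channel that releases ATP, rose by 0.41 (adjusted p = 0.018), a call lost without any 1 array other than Ad-Epas1 replicate 3 (at most 0.073). Capn2, a calpain subunit of the kind that cleaves IL-1alpha, fell by 0.52 (adjusted p = 0.010, and at most 0.055 without Mock replicate 2 or Mock replicate 3). Nlrp1b, an inflammasome sensor, fell by 0.73 (adjusted p = 0.011, and 0.054 without Mock replicate 2), at 6.58, 6.31 and 6.16 in Ad-Epas1 against 7.03, 7.19 and 7.02 in Mock. The other called genes, named after their values were seen, were Prtn3, a neutrophil protease (0.28, adjusted p = 0.0495), and Pycard, the inflammasome adaptor ASC (-0.38, adjusted p = 0.038). Both calls were lost without Ad-Epas1 replicate 1, Ad-Epas1 replicate 2, Mock replicate 1 or Mock replicate 2, and that of Prtn3 also without Mock replicate 3, with adjusted p-values of at most 0.17 for Prtn3 and 0.13 for Pycard.

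Casp1 encodes the protease that matures IL-1beta and IL-18, and Nlrp3 an inflammasome sensor. They were chosen after their values were seen because, as for Il1b, Ad-Epas1 replicate 3 was their lowest array. Casp1 was 8.98, 8.68 and 5.01 in Ad-Epas1 and 8.40, 8.31 and 8.17 in Mock. Its log2 fold change was -0.73 over 6 arrays (adjusted p = 0.64), and without Ad-Epas1 replicate 3 it rose by 0.54 (SE 0.12, adjusted p = 0.019). Nlrp3 was 8.64, 8.19 and 5.77 in Ad-Epas1 and 8.45, 7.90 and 7.96 in Mock, with -0.57 over 6 arrays (adjusted p = 0.61) and 0.31 without that replicate (adjusted p = 0.32). Both genes were at the unexpressed level on the array that was low in macrophage transcripts, as were Il1a and Il1b. The patterns part on Mock replicates 2 and 3, where Il1a and Il1b were below 6.62 and Casp1 and Nlrp3 above it.

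**Figure D3:**
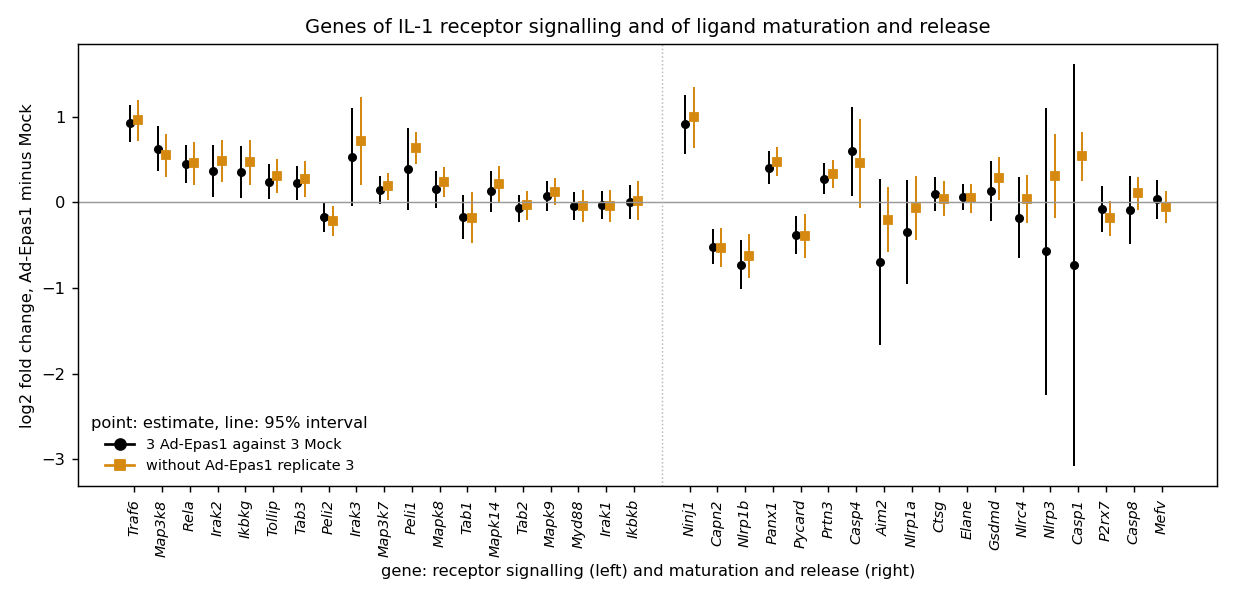
Log2 fold change, Ad-Epas1 minus Mock (y axis), of the measured signalling genes (left) and maturation and release genes (right), ordered by p within each set, with 95% intervals as lines. Black circles use 3 against 3 arrays and orange squares leave out Ad-Epas1 replicate 3. Traf6 and Ninj1 are highest in each set, and Casp1 and Nlrp3 have the widest black intervals.

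Of 28 measured genes known to respond to IL-1 in fibroblasts, 14 rose and 0 fell (50% called beside 16.3% of all genes), with a median log2 fold change of 1.11 beside 0.05 for all genes. At an unadjusted p under 0.05, 20 rose and 1 fell. Many of these genes also respond to other signals, and the list was chosen with results of these data known, so its direction is no independent evidence. Ptgs2, the inducible prostaglandin synthase COX-2, was 12.80, 12.72 and 12.45 in Ad-Epas1 against 9.88, 10.03 and 10.08 in Mock, a 6.31-fold rise (log2 fold change 2.66, SE 0.11, adjusted p = 3.1e-04, and 2.76 without Ad-Epas1 replicate 3). Lif, an IL-6 family cytokine, was 10.02, 10.45 and 9.76 in Ad-Epas1 against 7.37, 7.40 and 7.76 in Mock (2.56, SE 0.19, adjusted p = 9.8e-04, and 2.72 without that replicate). Zc3h12a, an RNase that degrades cytokine transcripts, rose by 1.29 (adjusted p = 0.0036, and by 1.35 without it), and Nfkbiz, a nuclear partner of NF-kB, by 1.32 (adjusted p = 0.0038, and by 1.25 without it). Each of the 4 kept its call with any 1 array left out.

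These 4 genes were high on all 3 Ad-Epas1 arrays, including the one with low macrophage transcripts and with both ligands below 6.62. They were picked by the smallest p over the 6 arrays, which favours such genes, so the contrast with Il1a and Il1b is no finding. Of all 28 response genes, 17 had every Ad-Epas1 array above every Mock array, beside 21.3% of all genes. For 1 they were all below, beside 18.4% of all genes, and for 10 the groups overlapped. The median response gene was 1.25, 1.07 and 0.61 log2 units from the Mock mean in Ad-Epas1 replicates 1, 2 and 3, and 0.38, -0.20 and -0.15 in Mock replicates 1, 2 and 3. Mock replicate 1, the Mock array with the highest Il1a and Il1b, was thus the highest Mock array here as well. Some chemokines lay between these patterns. Cxcl2, a neutrophil attractant chosen after its values were seen, was 11.84, 11.45 and 9.06 in Ad-Epas1 and 8.55, 7.03 and 7.14 in Mock (log2 fold change 3.21, adjusted p = 0.035, and 4.07 without Ad-Epas1 replicate 3, adjusted p = 0.0015). Its call was lost without Ad-Epas1 replicate 1, Ad-Epas1 replicate 2, Mock replicate 2 or Mock replicate 3 (adjusted p at most 0.13). On the 5 arrays other than Ad-Epas1 replicate 3, 20 response genes rose and 1 fell, so 75% were called beside 24.3% of all genes. The gene that fell was Tnfaip6, named after its values were seen (-0.37, adjusted p = 0.018).

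**Figure D4:**
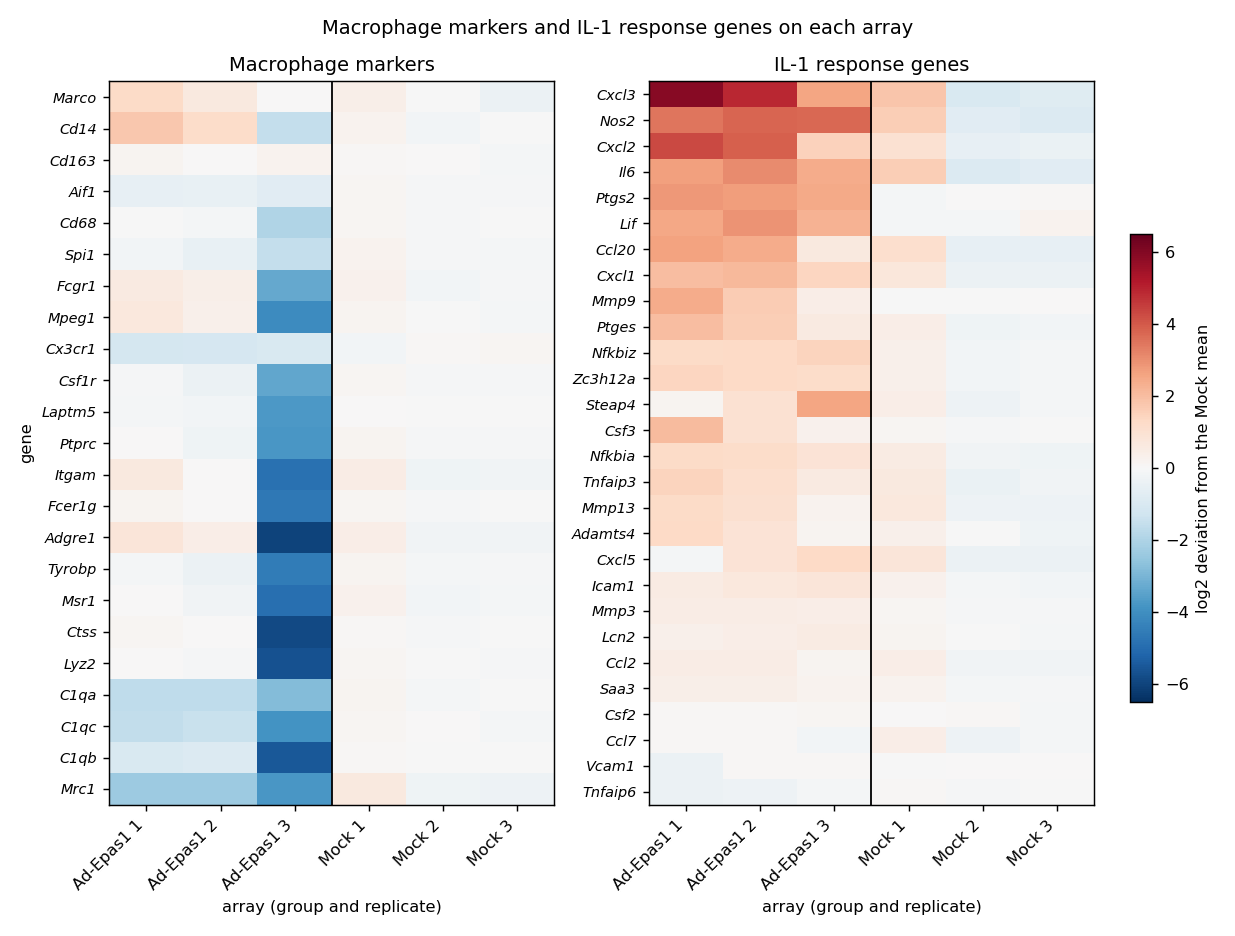
Log2 deviation of each gene from its Mock mean (colour) on each array (x axis, with the Ad-Epas1 arrays left of the line), for the 23 macrophage markers and the 28 IL-1 response genes. Most macrophage markers are low on Ad-Epas1 replicate 3, with a median of -3.80, while the median response gene there is 0.61 above Mock.

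The genes nearest in pattern were those with the smallest root mean square difference between their deviations from their own means over the 6 arrays. For Il1b the nearest was Il1a (0.20 log2 units), then Acod1 (0.64), Fpr2 (0.87), Clec4a1 (0.90) and Mmp8 (0.92). Acod1 was 12.24, 11.79 and 6.94 in Ad-Epas1 and 8.60, 6.24 and 5.99 in Mock, high on the same 2 Ad-Epas1 arrays and intermediate in Mock replicate 1. For Il1r1 the nearest were Agmo (0.13), Nhs (0.15), Ch25h (0.16), Arl15 (0.16) and Bex3 (0.17). Ch25h was 9.93, 9.89 and 10.53 in Ad-Epas1 and 11.89, 11.42 and 11.51 in Mock, so like Il1r1 it was lower on every Ad-Epas1 array and least so in replicate 3. The distance also scales with how far a gene moves, and Il1r1 spans a smaller range of levels than Il1b.

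**Figure D5:**
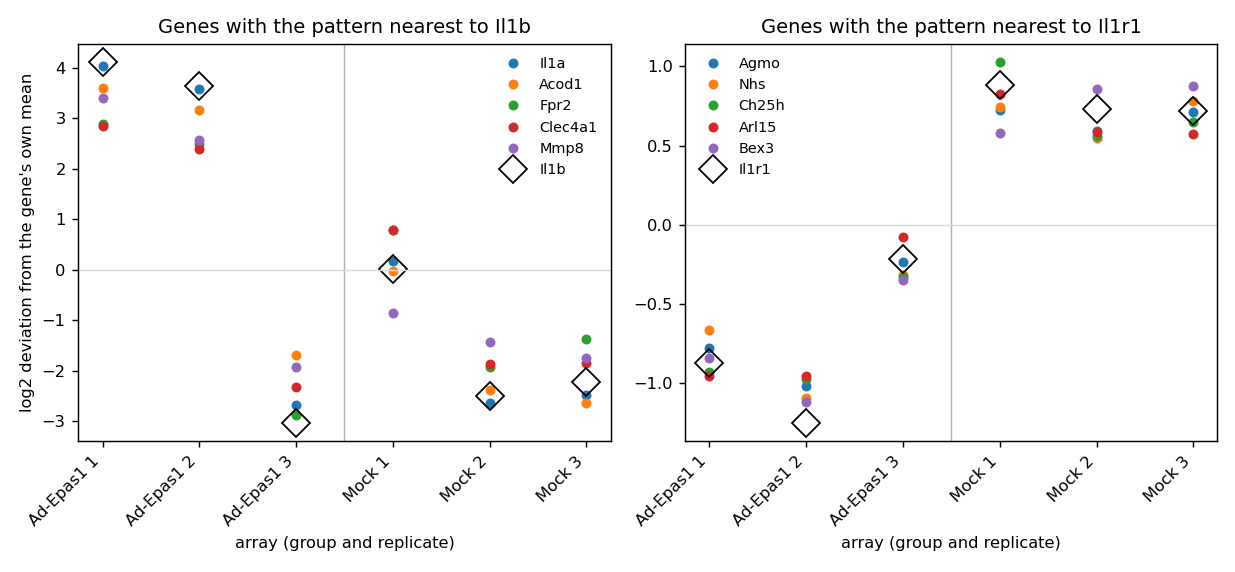
Log2 deviation from the gene's own mean over 6 arrays (y axis) on each array (x axis), for the 5 genes nearest to Il1b (left) and to Il1r1 (right). Diamonds are Il1b and Il1r1 and filled circles the other genes. Ad-Epas1 replicate 3 lies with Mock replicates 2 and 3 on the left and between the other Ad-Epas1 arrays and Mock on the right.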

How the data were processed

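Total RNA of 3 Ad-Epas1 and 3 Mock samples, 300 ng each, was labelled and hybridised to Affymetrix arrays, per the labels' protocols. The authors deposited log2 values per probe set. Per the submitters' processing notes these were made by RMA with Affymetrix Expression Console 1.3.1. RMA equalises the arrays' distributions, which hides a shift common to most genes and compresses large folds. No label or file header used here names a genome build.

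Of 41345 probe sets, 23521 carried 1 symbol in the platform annotation, 1814 several and 16010 none. The brightest probe set represented each of 22180 genes, with no filter on level. Of the Entrez IDs 23328 matched RefSeq, changing 0 symbols. Groups came from titles and were compared by limma 3.58.1 in R 4.3.3 (lmFit, eBayes, two-sided), tested on simulated data. The simulation drew independent noise with its largest spreads capped and had no deviating array. It therefore does not show how the test behaves with an array like Ad-Epas1 replicate 3. Same-numbered arrays' deviations from their group means correlated at 0.34, -0.19 and 0.21, and those of other pairs at -0.33 to 0.27. Deviations from a mean of 3 arrays constrain each other, so these values cannot decide whether numbers pair samples. The main fit used no pairing. Columns of other samples numbered 0.

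The members and the gene lists were chosen with earlier results of these data known. Named genes are the members, Epas1, Cd14 and Thy1, and for each list up to 4 genes, taken from the 4 with the smallest p. The 5 nearest patterns to Il1b and to the member with the smallest p are named too. Others are marked. The marker lists cover macrophages, fibroblasts, neutrophils, mast cells, T and B cells, endothelium and chondrocytes. Of the mast cell and of the T and B cell markers, 0 passed with limma (0 at an unadjusted p under 0.05), and without Ad-Epas1 replicate 3 again 0 (1 and 0 at an unadjusted p under 0.05). Of 8 endothelial markers 1 rose (12.5% called, beside 16.3% of all genes) and, without Ad-Epas1 replicate 3, 4 rose (50% beside 24.3%); of 7 chondrocyte markers 2 fell in both (28.6%).

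Alternatives were a replicate block, each array left out, other normalizations, a level filter, another variance prior, array weights, probe set choices, no shared variance and, chosen after seeing the data, a fit without Mock replicate 1 and Ad-Epas1 replicate 3.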

Additional observations from a re-analysis of the deposited data

How the results depend on the processing

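Il1r1 passed in 15 of 16 alternatives, Il18 in 11 of 15 and Il1rap in 10 of 18. These tallies do not count separate support. Only Il1rap has more than 1 probe set, so for the other genes the probe set choices reuse the same values. Il1a and Il1b passed in 3 of 16 each, Il33 in 2 of 16, and Il1rn, Il18bp and Il1r2 in none of theirs. The 3 for Il1a and Il1b were Ad-Epas1 replicate 3 left out, that array and Mock replicate 1 left out, and array weights. The first and second omit the same array, so the 3 are not separate support. Il1r1 missed only without shared variance (adjusted p = 0.067), where 0 of the 9 genes passed with limma's unmoderated test and 3 had an unadjusted p under 0.05, beside 1448 of all genes called. Leaving out each array in turn called 1 to 5 of the 9, 1181 to 5390 of all 22180 genes against 3620, 0 to 2 of the other family genes, 1 to 7 of the signalling genes, 1 to 7 of the maturation genes and 4 to 21 of the response genes. Over all genes, omitting Ad-Epas1 replicate 1 left 2186 calls, omitting Ad-Epas1 replicate 2 left 1512, omitting Ad-Epas1 replicate 3 gave 5390, omitting Mock replicate 2 left 1187 and omitting Mock replicate 3 left 1181. Array weights called 6 of the 9 (3 rose: Il1a, 5.33, Il1b, 5.23, and Il33, 0.52) and 7791 of all genes. With Ad-Epas1 replicate 3 and Mock replicate 1 both left out, a setting chosen after seeing the data, 5 of the 9 passed (Il1a at 6.37 and Il1b at 6.24), with 2 other family genes, 9 signalling genes, 23 response genes and 6000 of all genes. The replicate block called 4 of the 9, adding Il33 (adjusted p = 0.014), and 3108 of all genes. Il18bp turned to -0.15 without Ad-Epas1 replicate 2 and to -0.08 without Mock replicate 1, while its highest values were 0.26 with array weights and 0.22 with Ad-Epas1 replicate 3 omitted, and the dimmer probe sets of Il1rap gave log2 fold changes of 0.051 and 0.031. The cause of these differences was not tested. Signal near the unexpressed level limits Il1r2, Il18, Il1a and Il1b. It also limits genes outside the 9, such as Nlrp1b, Il1rl2 and Il18rap.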
